A study of Homo sapiens with 12 samples.

Results

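The 200470 regions described here carried acetylation of histone H3 at lysine 27 (H3K27ac) in HCC70 cells, an established human triple-negative breast cancer line, and were called by chromatin immunoprecipitation sequencing in 1 library after vehicle and 1 library after XY018. They were 95099 regions of the vehicle library and 105371 of the XY018 library on chromosomes 1 to 22 and X, of 684829 in all 6 immunoprecipitated libraries of the series, which also profiled SREBP2 and RORγ. A region that overlapped a region of the other H3K27ac library by at least 1 bp was called kept, and otherwise lost (vehicle) or gained (XY018). Regions within 1000 bp upstream to 100 bp downstream of any transcript start were assigned to promoters, other regions within genes to gene bodies and the remainder to intergenic sequence. No genetic change is given for either group, both come from this 1 cell line, and both grew in the same serum-containing medium before 24 h with vehicle or XY018. The sample labels give XY018 at 5 µM, whereas the methods of the study give a lower dose for this assay. Because each group held 1 library, no difference between treatments could be set against a replicate error, and no p-value was computed.

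H3K27ac is deposited by the acetyltransferases p300 and CBP on nucleosomes beside active promoters and enhancers, and is removed by histone deacetylases. RORγ is a nuclear receptor that binds DNA and recruits coactivators, and in these cells it was studied as an activator of cholesterol biosynthesis together with SREBP2, the main transcription factor of that pathway. XY018 is a small-molecule antagonist of RORγ. The comparison addressed where in the genome the acetylation differed after the receptor was blocked.

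The number of fragments covering the summit, the highest point of a region, was recovered from its deposited fold enrichment and p-value. XY018 to vehicle ratios were computed after each library was divided by its own genome-wide background, so that equal fragment numbers in both libraries correspond to a ratio of 1.10. Depth was 6.16 tags per kb of genome with vehicle and 5.62 with XY018. Intervals in parentheses are 95% intervals. For shares, fragments and ratios of single regions or genes they are exact and cover counting error only. For medians they are order-statistic intervals over the regions or genes, and so reflect the spread of these. For differences in kept share they are a normal approximation to counting error. As a check of the cell line, 8 of 11 markers of basal breast cells had a promoter region in each library. This share is near that of all 20090 protein-coding genes, of which 13421 had one with vehicle and 13666 with XY018. Among the basal markers were EGFR (231 fragments with vehicle, 255 with XY018), FOXC1 (142 and 168, summits 653 bp apart) and CDH3 (177 and 212). No region was called at KRT14 or KRT6B in either library, while TP63 had one with vehicle only and KRT6A with XY018 only. Of the luminal and hormone receptor markers, 7 of 10 had a promoter region, also near the share of all genes. There was none at PGR and TFF1 and a weak one at ESR1 (10 and 13 fragments), but strong ones at FOXA1 (225 and 250), GATA3 (189 and 204) and ERBB2 (180 and 239). PTPRC, CD3E, PECAM1, COL3A1 and ALB, which mark other cell types, had none, whereas COL1A1 and ACTA2 did in both libraries.

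Sequences of GRCh37 (hg19) are shown for the ends of the comparison. The first set comprises 200 bases upstream of the canonical start of 4 genes, written in the direction of transcription. CDC20 (chr1:43824452-43824651, plus strand) and TOP2A (chr17:38574149-38574348, minus strand) are mitotic genes with low ratios. KLF15 (chr3:126076252-126076451, minus strand) and ONECUT2 (chr18:55102406-55102605, plus strand) encode transcription factors and had high ratios. Capitals mark CCAAT, the letters bound by NF-Y, and TTTGAA, the core of the cell cycle element CHR, on either strand.
CDC20: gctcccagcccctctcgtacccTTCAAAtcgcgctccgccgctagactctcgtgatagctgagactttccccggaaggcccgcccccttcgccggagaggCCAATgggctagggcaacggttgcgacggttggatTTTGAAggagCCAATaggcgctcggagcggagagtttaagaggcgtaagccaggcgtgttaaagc
TOP2A: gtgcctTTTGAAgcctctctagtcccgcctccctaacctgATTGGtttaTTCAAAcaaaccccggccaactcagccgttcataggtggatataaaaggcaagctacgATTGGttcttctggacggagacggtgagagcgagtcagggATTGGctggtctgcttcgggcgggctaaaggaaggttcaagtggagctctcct
KLF15: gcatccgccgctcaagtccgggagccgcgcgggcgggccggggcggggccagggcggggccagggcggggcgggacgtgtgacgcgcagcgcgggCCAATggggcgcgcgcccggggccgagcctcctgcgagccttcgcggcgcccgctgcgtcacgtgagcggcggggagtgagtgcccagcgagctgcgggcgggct
ONECUT2: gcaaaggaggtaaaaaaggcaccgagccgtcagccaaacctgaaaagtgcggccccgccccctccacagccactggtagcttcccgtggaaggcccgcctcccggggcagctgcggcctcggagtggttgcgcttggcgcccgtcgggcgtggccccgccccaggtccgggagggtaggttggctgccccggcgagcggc

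The second set comprises 201 bases centred on the summits of 4 distal regions on the plus strand, chosen because they stood at either end by ratio or, among lost and gained regions, by fold. They are the MOK gene body region (chr14:102729477-102729677), the EGFR gene body region (chr7:55154268-55154468), the lost intergenic region nearest RIPK4 (chr21:43093324-43093524) and the gained intergenic region nearest SCARB1 (chr12:125170812-125171012). Capitals mark CpG dinucleotides, of which the windows held 6, 9, 8 and 3 in this order.
MOK: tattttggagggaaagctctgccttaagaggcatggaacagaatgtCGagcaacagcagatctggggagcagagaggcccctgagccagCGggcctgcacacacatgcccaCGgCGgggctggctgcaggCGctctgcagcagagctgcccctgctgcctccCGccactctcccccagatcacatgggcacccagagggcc
EGFR: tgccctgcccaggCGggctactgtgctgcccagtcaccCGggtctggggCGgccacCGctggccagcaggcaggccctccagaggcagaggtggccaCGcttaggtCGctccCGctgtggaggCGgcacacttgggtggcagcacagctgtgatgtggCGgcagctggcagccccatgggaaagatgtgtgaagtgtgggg
near RIPK4: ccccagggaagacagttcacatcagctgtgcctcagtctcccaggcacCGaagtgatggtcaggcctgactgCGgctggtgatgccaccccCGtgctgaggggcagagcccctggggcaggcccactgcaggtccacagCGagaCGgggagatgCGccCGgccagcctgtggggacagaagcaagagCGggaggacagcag
near SCARB1: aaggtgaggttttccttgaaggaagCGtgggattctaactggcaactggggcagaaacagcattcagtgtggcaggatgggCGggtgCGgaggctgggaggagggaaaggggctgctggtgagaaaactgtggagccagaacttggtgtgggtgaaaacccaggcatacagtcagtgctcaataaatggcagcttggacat

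Promoter regions were kept more often than regions in the other places. Of 26588 promoter regions with vehicle, 85.4% (85.0 to 85.8) were kept with XY018, against 62.2% (61.8 to 62.6) of 52421 gene body and 66.1% (65.3 to 66.8) of 16090 intergenic regions. Of the XY018 regions, 19.1% were gained at promoters (18.6 to 19.5), 44% in gene bodies (43.6 to 44.4) and 43.2% in intergenic sequence (42.5 to 43.9). The surplus of regions in the deposited XY018 list was uneven, at 4.20% for promoters, 12.0% for gene bodies and 17.9% for intergenic sequence. For each region lost, 1.36 were gained at promoters, 1.3 in gene bodies and 1.5 in intergenic sequence. These figures hold for the deposited lists only, which retained unequal shares of the weaker regions, as given below. Within 10 classes of equal size by vehicle fold, promoters were still kept more often than intergenic regions, by 5.87 percentage points on average (5.01 to 6.73), whereas gene bodies were kept less often, by -1.72 points (-2.41 to -1.03).

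**Figure D1:**
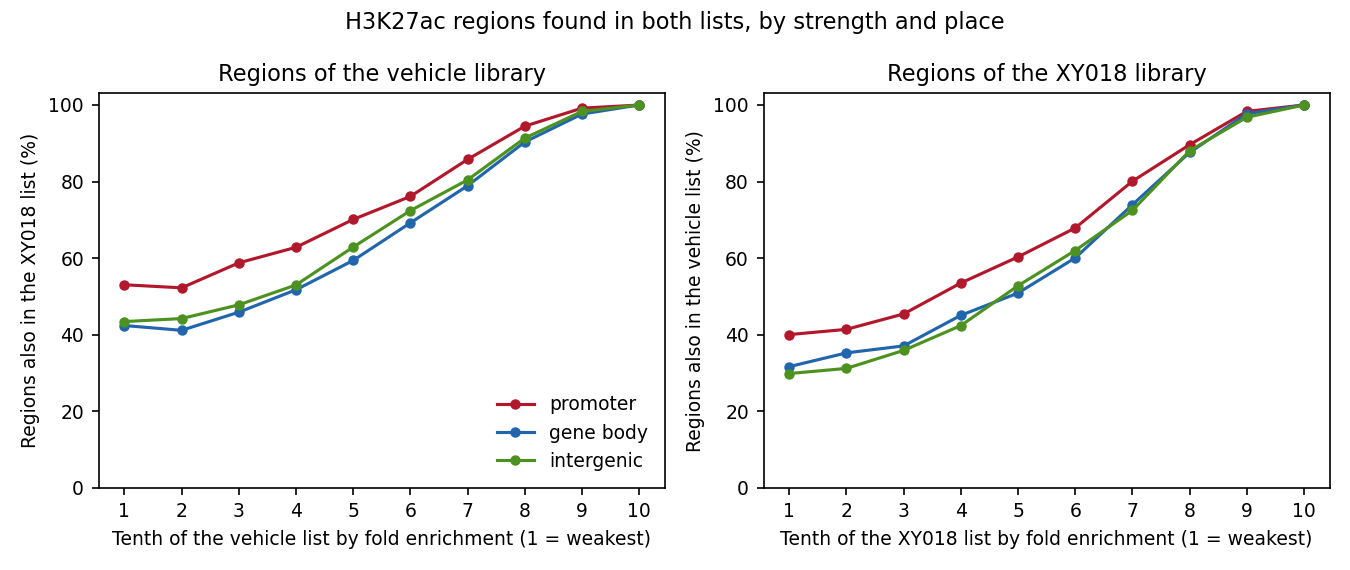
Share of H3K27ac regions also present in the other list (y axis, %) in 10 classes of fold enrichment from weakest to strongest (x axis), for vehicle regions on the left and XY018 regions on the right, with 1 line per place. In the weakest vehicle class 53% of promoter, 42.4% of gene body and 43.4% of intergenic regions were shared, and in the strongest class the lines met at 100% or, for promoters, just under it.

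The regions at only one end were weak. Lost regions had a median of 11 fragments at the summit, a number whose Poisson interval runs from 5.49 to 19.7, and 97.2% of them had 20 or fewer. Gained regions also had a median of 11 fragments, and 97.9% had 20 or fewer. Of the vehicle regions with up to 10 fragments 66.4% were lost, of those with 11 to 15 fragments 41.8%, of those with 16 to 20 fragments 20.1% and of those with 21 to 30 fragments 6.01%. Above 40 fragments, 5 of 10996 vehicle regions were lost, all in gene bodies, and 0 of 8868 promoter regions. Many lay beside a region of the other list. Of lost regions 42.1% were less than 1 kb from an XY018 region and 13.7% more than 10 kb from any, and of gained regions 39.4% and 13.9% were so placed from vehicle regions. The deposited lists held nearly all of the first 20000 regions by rank in the call set of each library, but 62.0% of the ranks above 50000 up to 100000 with vehicle and 69.8% with XY018, and 4.17% and 6.12% beyond rank 150000. The highest rank in the list was 245055 with vehicle and 241397 with XY018, although the XY018 list was the longer. The rule by which weaker regions were left out was not stated, and its part in the surplus of XY018 regions was not tested.

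Counted by gene, promoters with a region in only one library were few. Of 20090 protein-coding genes, 12985 had a promoter region in both libraries, 436 with vehicle only (2.17% of all such genes) and 681 with XY018 only (3.39%). Most of these single-library promoters were weak, with 20 or fewer fragments in 90.1% of the vehicle-only and 88.7% of the XY018-only genes. In 64 and 75 of them the region itself reached a region of the other list beyond the promoter window. Among list members, TP63, a transcription factor of basal cells, had a region with vehicle only, as did the ribosomal protein gene RPL34 and the respiratory chain genes ATP5PO and COX6A1. KRT6A, the clock genes HLF and CIART, the fatty acid enzyme ACACB, the lipoprotein gene APOC1 and the mitotic kinase TTK had one with XY018 only.

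Of the 8 lost promoter regions of highest fold, 6 belonged to a gene that had another promoter region in both libraries. The first, with no such region, was at CIT (chr12:120314599-120315155), which encodes citron kinase, with 39 fragments (27.7 to 53.3) and a fold of 18.4. It was followed by a region at DNAJB1, which encodes a co-chaperone of HSP70, with 35 fragments (24.4 to 48.7), whereas another promoter region of DNAJB1 had 140 fragments with vehicle and 212 with XY018. Others lay at AKT1, a kinase of growth factor signalling, with 28 fragments (18.6 to 40.5) and 446 bp from the nearest XY018 region, and at the glucose transporter gene SLC2A8, also with 28 fragments. The gained promoter regions of highest fold included those at VDR, the vitamin D receptor, with 35 fragments (24.4 to 48.7), and at NBAS, with 35. FHL1 gained one of 29 fragments that lay 45585 bp from any vehicle region. Another promoter region of VDR had 32 fragments with vehicle and 41 with XY018 (ratio 1.40, 0.863 to 2.30).

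Outside promoters, the lost gene body regions of highest fold included those in STOML1 (chr15:74277599-74277920) and SYNJ2 (chr6:158438889-158439421), with 36 fragments each (25.2 to 49.8), and in CDK19, a kinase of the Mediator complex, with 33 fragments and 24716 bp from any XY018 region. The gained ones of highest fold included those in GTF2IRD1 (chr7:73891245-73892553), with 38 fragments (26.9 to 52.2) and only 86 bp from a vehicle region, and in the long noncoding gene LINC02765, with 35. In intergenic sequence a lost region among those of highest fold lay 65.8 kb from RIPK4, a kinase of epithelial differentiation, with 27 fragments (17.8 to 39.3). It sat 317 bp from an XY018 region and was itself overlapped by SREBP2 and RORγ regions in both treatments. A gained one lay 90.3 kb from SCARB1, the HDL receptor, with 33 fragments (22.7 to 46.3), and overlapped no region of either factor. Of the 24 lost regions of highest fold over the 3 places, 21 overlapped a vehicle SREBP2 region, 14 one with XY018, 13 a vehicle RORγ region and 17 one with XY018, and of the 24 gained ones 6, 4, 5 and 5. These regions are stronger than most, and over all lost regions a vehicle SREBP2 region overlapped 32.8% at promoters, 16.7% in gene bodies and 13.9% in intergenic sequence, against 21.9%, 10.1% and 10.4% of gained ones.

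Regions present in both libraries were compared by their fragments. Overlapping regions formed 60559 shared regions, of which 27459 had at least 40 fragments in both libraries together. The median ratio was 1.25 (1.24 to 1.26) over 14725 promoters, 1.10 over 9245 gene body regions and 1.13 (1.12 to 1.14) over 3489 intergenic regions. The gene body median thus equalled the value for equal fragment numbers. The quartiles overlapped widely, at 1.03 and 1.46 for promoters, 0.896 and 1.33 for gene bodies and 0.939 and 1.36 for intergenic regions. A ratio of at least 2 was found at 349 promoters (2.37%), 189 gene body (2.04%) and 90 intergenic regions (2.58%). A ratio of at most 0.5 was found at 96 (0.652%), 96 (1.04%) and 15 (0.430%) in the same order. Much of the difference between places went with strength. The promoter median rose from 1.10 at 41 to 60 fragments to 1.19 at 81 to 120 and 1.34 at 201 to 300, and on average over 10 classes of strength promoters exceeded gene bodies by 0.05 and intergenic regions by 0.03 on the log2 scale, against 0.19 and 0.14 without classes. The difference was above 0 in 8 of the 10 classes for gene bodies and in 5 of 10 for intergenic regions, where it ran from -0.05 to 0.11.

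**Figure D2:**
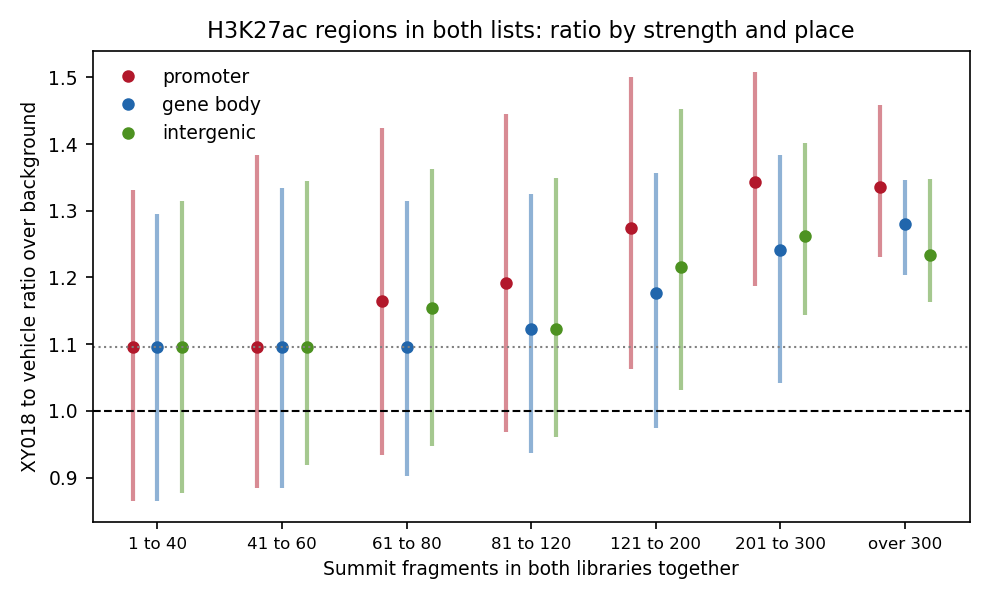
XY018 to vehicle ratio of H3K27ac at shared regions (y axis, over background) by the summit fragments of both libraries together (x axis), with 1 point per place for the median and bars for the quartiles. The dotted line marks the ratio of 1.10 that equal fragment numbers give and the dashed line a ratio of 1, and all 3 places lie at 1.10 below 61 fragments and above it from 81 fragments on.

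At the level of genes, 13052 protein-coding promoters had a ratio, with a median of 1.27 and quartiles of 1.06 and 1.47. Of 11422 with at least 40 fragments, 396 (3.47%) had a ratio at least 1.5-fold above that median and 912 (7.98%) at least 1.5-fold below it. This threshold is a rule of size and not a test. The ratio also went with base composition. It was 1.18 in the class of promoters with the least GC in the 200 upstream bases (21.5% to 54%) and 1.43 in the class with the most (80% to 96.5%). Values against promoters of like GC and strength are therefore given beside most gene lists, and the part of either in the ratios was not tested.

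The 12 highest promoter ratios, among 9909 genes with at least 60 fragments, began with ONECUT2. This gene of a homeodomain transcription factor had 18 fragments with vehicle and 65 with XY018, a ratio of 3.96 (2.32 to 7.09). NRTN, which encodes the neurotrophic ligand neurturin, had 27 and 92 (3.73, 2.41 to 5.97). The Wnt receptor gene FZD10 had 17 and 44 (2.84, 1.59 to 5.29), and CYP26B1, which degrades retinoic acid, had 18 and 46 (2.80, 1.59 to 5.13). KLF15, a transcription factor of metabolic genes, had 19 and 48 (2.77, 1.60 to 4.99), and the adaptor gene GAB2 had 60 and 148 (2.70, 1.99 to 3.71). EGFL7, FHDC1, RNF157, RASGRP2 and the shared promoter of STT3A and FEZ1 completed the set, with ratios from 2.70 to 2.92. Every interval in this set lay above 1.27, but the genes were picked as the extremes of many and the intervals do not allow for that choice.

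The 12 lowest ratios in the same genes began with FAM200B, which had 56 fragments with vehicle and 14 with XY018, a ratio of 0.274 (0.141 to 0.499). R3HCC1L had 59 and 17 (0.316, 0.173 to 0.549). RPS3, a protein of the small ribosomal subunit, had 79 and 25 (0.347, 0.212 to 0.550), and EIF2S3, a subunit of the initiation factor eIF2, had 46 and 16 (0.381, 0.201 to 0.686) at summits 647 bp apart. TOMM20, an import receptor of the mitochondrial outer membrane, had 69 and 23 (0.365, 0.217 to 0.593), and the shared promoter of MAIP1 and TYW5 had 48 and 16. RACGAP1, needed for cytokinesis, had 76 and 30 (0.433, 0.274 to 0.668). INHBA, which encodes the activin A subunit, had 63 and 23 (0.400, 0.237 to 0.654), and the HLA class I gene HLA-E had 63 and 25 (0.435, 0.262 to 0.701). TSTD3 and STAM2 also belonged to the set. The intervals of all 12 lay below 1, with the same reservation on their choice.

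Among the gene lists, which were chosen with earlier results of these data known and were not tested, promoters of mitotic genes lay lowest. Their median ratio was 0.939 over 19 genes (0.590 to 1.18), against 1.27 over all promoters, and 16 of the 19 lay below that median. Of 15 with at least 40 fragments, 8 were at least 1.5-fold below it and 0 above, beside 7.98% and 3.47% of all genes. CDC20, which activates the anaphase-promoting complex, had 74 fragments with vehicle and 35 with XY018 (0.518, 0.336 to 0.785), but at summits 839 bp apart, so that its values come from different positions. TOP2A, topoisomerase II, had 66 and 28 (0.465, 0.288 to 0.734). The cyclin gene CCNB2 had 35 and 16 (0.501, 0.259 to 0.929) and its partner kinase CDK1 95 and 61 (0.704, 0.502 to 0.981). CCNA2, BUB1, BIRC5 and CENPF were the others below the threshold, with upper bounds above 1. KIF11, BUB1B and KIF23 lay above the promoter median, KIF11 with 85 and 118 fragments (1.52, 1.14 to 2.04). Mitotic promoters had less GC upstream than the median promoter, 60.5% against 68.5%, and against promoters of like GC and strength their median was 0.857, with 6 above and 12 below.

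**Figure D3:**
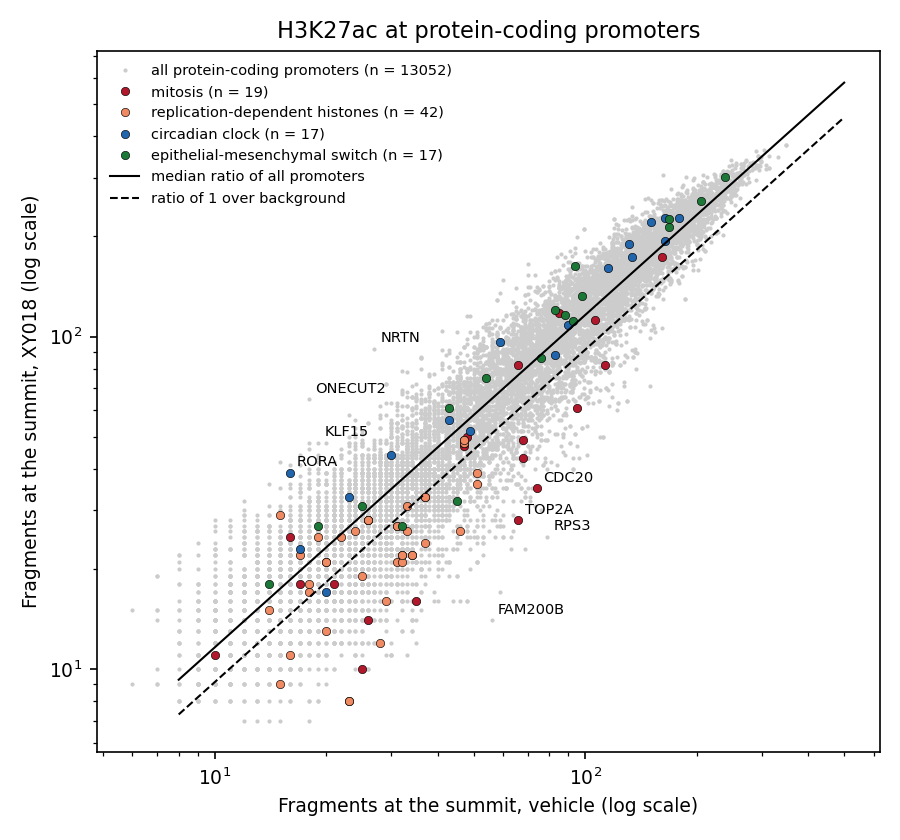
Summit fragments at protein-coding promoters with vehicle (x axis, log scale) and XY018 (y axis, log scale), with all 13052 promoters in grey and the members of 4 gene lists in colour. The solid line marks the median ratio of 1.27 and the dashed line a ratio of 1 over background. Mitotic and histone promoters fall mostly below the solid line, whereas promoters of the clock and of the epithelial-mesenchymal switch lie mostly on or above it.

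The mitotic promoters shared the letters shown above. CCAAT was present in the 200 upstream bases of 16 of the 19 mitotic promoters (84.2%), against 29.4% of 13025 promoters with a ratio, and TTTGAA in 11 (57.9%) against 5.00%. CDC20 held 2 of each and TOP2A 3 CCAAT and 2 TTTGAA. The CHR core was searched after the mitotic values were seen. CCAAT was also found in 17 of 20 promoters of cholesterol biosynthesis, and in 32.4% of the promoters in the lowest of 5 ratio classes against 27.7% in the highest, but in 34% of both the 100 lowest and the 100 highest. TTTGAA was found in 5.61% and 2.68% of the same classes. A match is a description of these letters and not of a bound factor.

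Replication-dependent histone genes, which are expressed in S phase, had a median ratio of 0.966 over 42 genes at 31 regions, and 39 of the 42 lay below the promoter median. Of 33 with enough fragments, 13 (39.4%) were at least 1.5-fold below it and 1 (3.03%) above, beside 7.98% and 3.47% of all genes. H1-3 had 28 fragments with vehicle and 12 with XY018, and H2AC19 46 and 26. H4C16, the one above, had 15 and 29. These promoters were poor in GC (43.5%), and against promoters of like GC and strength their median was 0.852. Many histone genes share a region with a neighbour and therefore a value, and near-identical copies make the placement of reads uncertain. Genes of the G1 to S transition lay near all promoters, with a median of 1.24 over 25 genes. CDC6, a replication licensing factor, had 23 and 42 fragments (2.0, 1.18 to 3.49) and MCM7, a subunit of the replicative helicase, 186 and 130 (0.766, 0.607 to 0.963).

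Genes of the protein synthesis and energy machinery lay lower than most. Ribosomal protein genes had a median ratio of 1.05 over 81 genes (0.976 to 1.10), with 62 below the promoter median. Of 73 with enough fragments, 16 (21.9%) were at least 1.5-fold below it, beside 7.98% of all genes. RPL10A had 88 fragments with vehicle and 44 with XY018, and RPL17 114 and 70, whereas RPL7 had 131 and 197. Genes of oxidative phosphorylation had a median of 1.10 over 80 genes (0.993 to 1.23), and 11 of 59 (18.6%) were at least 1.5-fold below. Among these were the ATP synthase genes ATP5MG (51 and 27) and ATP5MF (87 and 51, summits 490 bp apart). Proteasome genes had a median of 1.12 over 33 genes, with 4 of 31 (12.9%) below the threshold. Neither the ribosomal nor the respiratory list had a member with enough fragments at least 1.5-fold above, beside 3.47% of all genes. Against promoters of like GC and strength the medians were 0.860, 0.954 and 0.945 in this order. Among chaperones, HSPA8, the constitutive HSP70, had 101 and 44 fragments (0.477, 0.327 to 0.687), whereas HSPA1A, the inducible one, had 37 and 55 (1.63, 1.05 to 2.54).

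**Figure D4:**
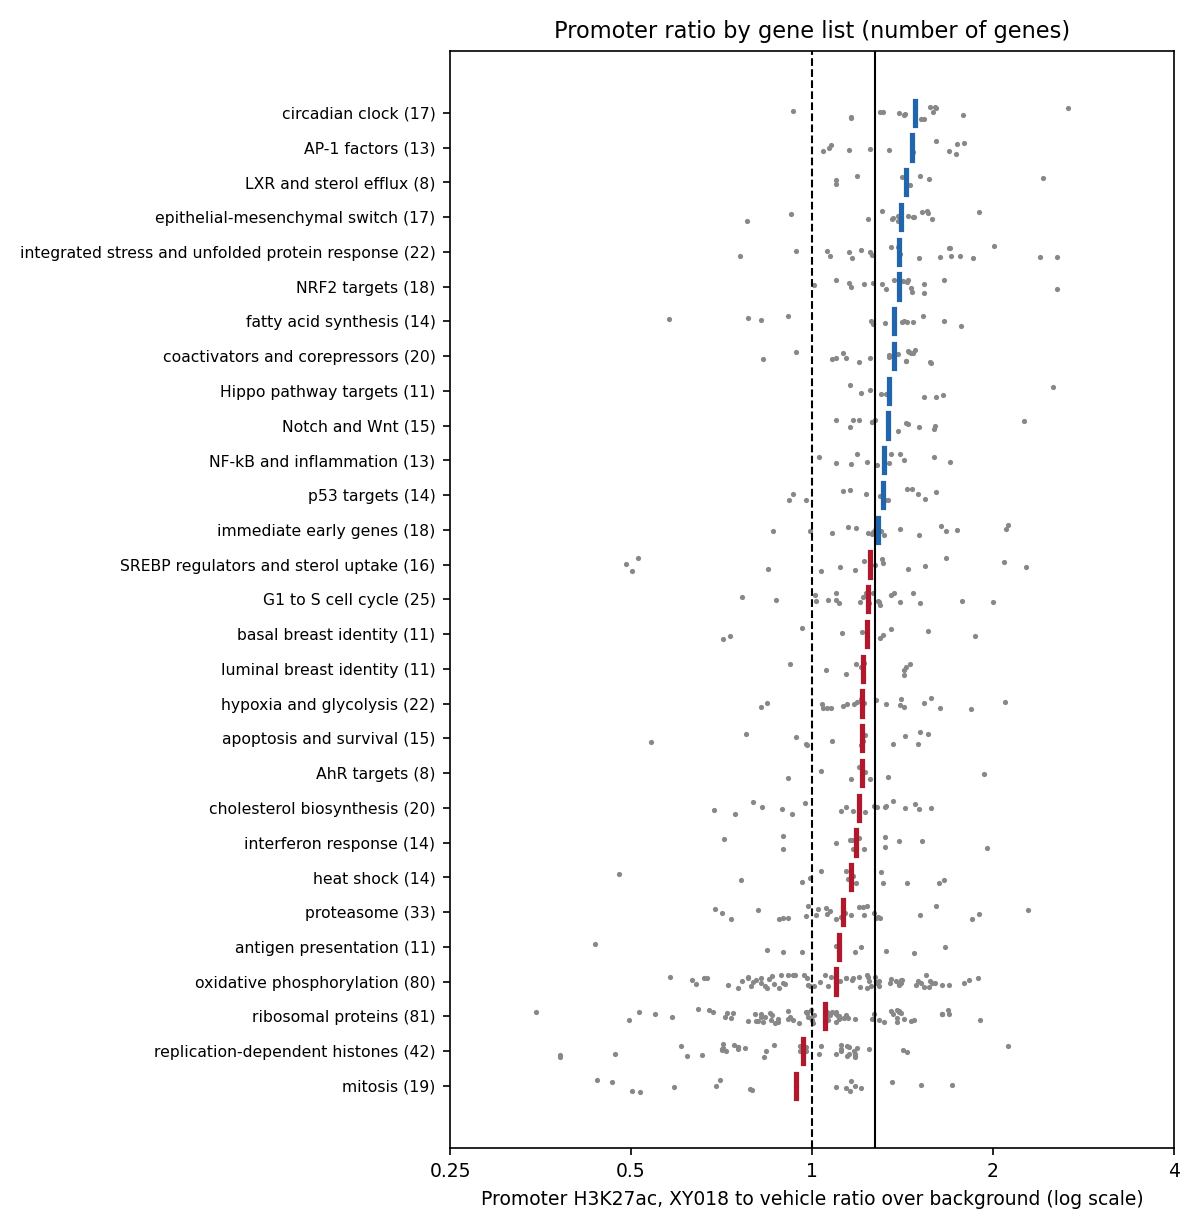
Promoter H3K27ac ratio of XY018 to vehicle (x axis, log scale) for the members of 29 gene lists (grey points, 1 per gene), with the list median as a bar, blue above and red below the median of all promoters. The solid line marks the median of all promoters at 1.27 and the dashed line a ratio of 1, and the medians run from 0.939 for mitosis to 1.48 for the circadian clock. The lists were chosen with earlier results of these data known.

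Cholesterol biosynthesis genes spread on both sides. They had a median of 1.2 over 20 genes, close below that of all promoters, with 8 above and 12 below. Against promoters of like GC and strength the median was 0.911, with 7 above and 13 below. Of 19 with enough fragments, 3 (15.8%) were at least 1.5-fold below the promoter median and 0 above, beside 7.98% and 3.47% of all genes. PMVK, phosphomevalonate kinase, had 47 fragments with vehicle and 32 with XY018 (0.746, 0.461 to 1.19) at summits 1533 bp apart, and SC5D, a sterol desaturase, 93 and 70 (0.825, 0.596 to 1.14). SQLE, squalene epoxidase, had 61 and 88 (1.58, 1.13 to 2.23) and LSS, lanosterol synthase, 159 and 219 (1.51, 1.22 to 1.86). HSD17B7 had no promoter region in either library, and HMGCS1 had a weak one, with 22 and 16 fragments.

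Among the regulators and transporters of sterols the range was wider. The sterol transporter gene NPC1L1 had 49 fragments with vehicle and 23 with XY018 (0.514, 0.299 to 0.860). MYLIP, a ubiquitin ligase and a target of the oxysterol receptor LXR, had 74 and 141 (2.09, 1.56 to 2.81), and INSIG2, which retains SREBP in the endoplasmic reticulum, had 14 and 29 (2.27, 1.16 to 4.65). SREBF2, which encodes SREBP2, had 239 and 286 (1.31, 1.10 to 1.56). Genes of LXR and sterol efflux had a median of 1.43 over 8 genes, with 5 above and 3 below that of all promoters. Against promoters of like GC and strength their median was 1.19. All 8 had a ratio above 1, as did 80.4% of all promoters, and the lowest was 1.10, the value for equal fragment numbers. The efflux transporter ABCG1 had 28 and 62 (2.43, 1.53 to 3.94) and ABCA1 44 and 63 (1.57, 1.05 to 2.36). APOE had no promoter region. In fatty acid synthesis, ACLY had 36 and 19 (0.578, 0.313 to 1.03), whereas FASN had 136 and 190 (1.53, 1.22 to 1.92).

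By unadjusted ratio, the circadian clock had the highest list median, 1.48 over 17 genes (1.31 to 1.59), with 14 above and 3 below that of all promoters. Against promoters of like GC and strength it was 1.09, with 12 above and 5 below, and thus lower than for LXR and sterol efflux (1.19), the stress response (1.17) and AP-1 factors (1.11). RORA, a related nuclear receptor, had 16 fragments with vehicle and 39 with XY018 (2.67, 1.46 to 5.12), PER2 59 and 96 (1.78, 1.28 to 2.51) and NR1D2 151 and 221 (1.60, 1.3 to 1.99). Only RORA of 16 (6.25%) was at least 1.5-fold above the promoter median, beside 3.47% of all genes. In the epithelial-mesenchymal switch list, 14 of 17 lay above, or 12 against promoters of like GC and strength, with OVOL1, a repressor that keeps the epithelial state, at 94 and 163 (1.90, 1.46 to 2.48) and CDH1, E-cadherin, at 238 and 302 (1.39, 1.17 to 1.66). SNAI2, a repressor of epithelial genes, had 45 and 32 (0.779, 0.479 to 1.25), but SNAI1 had 43 and 61. AP-1 factors had a median of 1.46 over 13 genes, with 0 past the threshold on either side.

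Genes of the integrated stress and unfolded protein response had a median of 1.40 over 22 genes. VLDLR, a lipoprotein receptor, had 70 fragments with vehicle and 153 with XY018 (2.39, 1.79 to 3.22), ASNS, asparagine synthetase, 55 and 101 (2.01, 1.43 to 2.85) and SLC7A11, the cystine transporter, 12 and 28 (2.56, 1.26 to 5.52). These 3 of 21 (14.3%) were at least 1.5-fold above and DDIT4 (4.76%) was below, beside 3.47% and 7.98% of all genes. ATF4, which drives several of them, had 172 and 166 (1.06, 0.849 to 1.32) at summits 1129 bp apart, and CHAC1 and TRIB3 had ratios of 1.63 and 1.77. The highest members of 3 other lists were as follows. HES1, the Notch effector, had 84 and 173 (2.26, 1.73 to 2.96), NR4A1 46 and 89 (2.12, 1.47 to 3.10), and CYP1A1 30 and 53 (1.94, 1.21 to 3.14). In their lists (Notch and Wnt, immediate early, AhR targets), 1 of 15, 2 of 18 and 1 of 7 were at least 1.5-fold above. These were 6.67%, 11.1% and 14.3%, beside 3.47% of all genes. The AhR list had a median of 1.21, with 2 above and 6 below that of all promoters. Of 30 lists compared, 26 stayed on the same side of all promoters under 5 other choices of minimum, window, strength and GC. The exceptions were basal identity and G1 to S genes with GC, immediate early genes with strength, and interferon genes with GC and strength together.

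Large differences were also found at single distal regions, ranked among 3050 gene body and 1321 intergenic pairs with at least 60 fragments. The regions named were picked as the extremes of these, and their intervals do not allow for that choice. The lowest gene body ratio lay in MOK (chr14:102729168-102729935), with 58 fragments with vehicle and 7 with XY018 (0.132, 0.0509 to 0.290), while the MOK promoter had 23 and 36. A region in EGFR (chr7:55154130-55155028) had 61 and 22 (0.395, 0.231 to 0.653), while the EGFR promoter had a ratio of 1.21 (1.01 to 1.45). Regions in MAD1L1 (54 and 17), P2RX4 (57 and 19), MYO10 (50 and 17) and ANKRD11 (45 and 16) completed the lowest set. The highest was in GATAD2B, a subunit of the NuRD deacetylase complex (chr1:153778454-153779384), with 19 and 56 (3.23, 1.89 to 5.76). SQSTM1, the autophagy receptor p62, held one with 31 and 73 (2.58, 1.67 to 4.06).

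In intergenic sequence, the upper end included a region 23 kb from PLIN2, which coats lipid droplets, with 20 fragments with vehicle and 46 with XY018 (2.52, 1.46 to 4.50). The PLIN2 promoter had 277 and 292 (1.16, 0.977 to 1.37). Others lay 57.3 kb from KLF4, with 19 and 46, and 23.1 kb from MKI67, with 25 and 58. At the lower end were regions near RPN1 (52 and 18, summits 616 bp apart), ARHGEF10L (49 and 19) and RIPK4 (42 and 18). The last lay beside the lost intergenic region whose sequence is shown above.

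Regions of one gene could also shift in number. Of 3055 protein-coding genes with at least 10 gene body regions, the median gene lost 33.3% of its vehicle regions and gained 41.2% of its XY018 regions. In 15 of the 3055 genes every region differed, led by YES1, a kinase of the SRC family, with 10 lost and 9 gained, HSDL2 with 6 and 9 and LUC7L with 7 and 7. Their regions were weak, with a highest value of 19 fragments in YES1. Over the 3055 genes the direction was as follows. More were gained than lost in 1727 of these genes and more lost than gained in 927. Chosen after the values were seen, TANGO6 lost 4 of 37 vehicle regions and gained 33 of 65 XY018 regions. ZMYND8, a chromatin reader, lost 3 of 20 and gained 27 of 42, and NAV1 lost 13 of 49 and gained 37 of 74. In the other direction ANKRD11, a chromatin regulator, lost 27 of 49 and gained 7 of 32. MAD1L1, of the mitotic spindle checkpoint, lost 32 of 71 and gained 16 of 54. Ratios were also summarised in windows along the chromosomes. The window of chromosome 7 from 41000001 to 42000000, which holds INHBA, had the lowest median ratio of 852 windows, 0.742 over 16 shared regions that ranged from 0.400 to 1.78, and the window of chromosome 2 from 239000001 to 240000000, with PER2 and HES6, one of the highest at 1.51 over 13.

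Gained regions overlapped the transcription factors less often than lost ones at all 3 places. Among regions of 11 to 20 fragments at promoters, a vehicle SREBP2 region overlapped 38.4% of kept (37.3 to 39.6), 35.5% of lost (33.6 to 37.5) and 22.6% of gained regions (21.1 to 24.2). For vehicle RORγ the shares were 31.0%, 28.2% and 19.0%. In gene bodies SREBP2 overlapped 17.5% of kept, 18.1% of lost and 10.4% of gained regions, and in intergenic sequence 14.8%, 14.9% and 10.5%. The order of lost above gained also held with the XY018 lists of both factors, in which the overlap of lost promoter regions was 26.7% for SREBP2 and 28.4% for RORγ against 16.9% and 18.4% of gained ones. Each list came from 1 library of the same cell line.

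**Figure D5:**
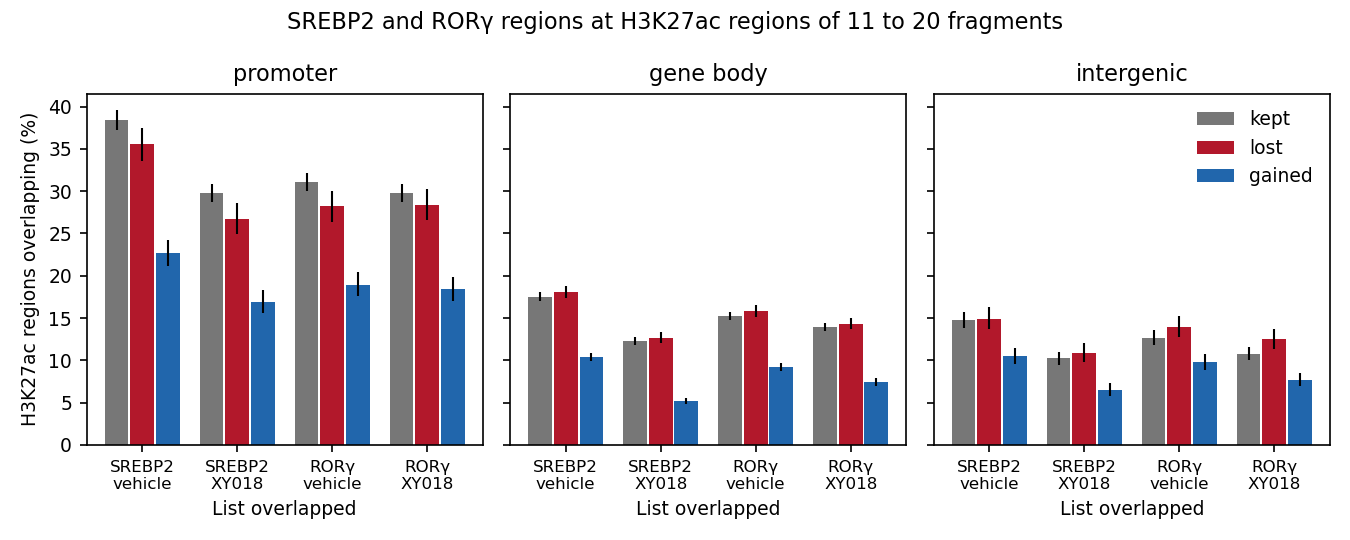
Share of H3K27ac regions with 11 to 20 summit fragments that overlapped a region of each transcription factor list (y axis, %), for kept, lost and gained regions at the 3 places, with exact 95% intervals as bars. In each panel and for each of the 4 lists the gained regions stand lowest, and at promoters with vehicle SREBP2 they reach 22.6% against 35.5% for lost regions.

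Among shared regions the relation to the factors differed by place. In 5 classes of ratio over regions with at least 60 fragments, promoters with a vehicle RORγ region went from 65.7% (63.7 to 67.7) in the lowest class to 88.2% (86.8 to 89.5) in the highest, while those with vehicle SREBP2 ran from 89.5% to 92.0% and those with XY018 SREBP2 from 77.6% (75.8 to 79.3) to 89.4% (88.0 to 90.6). The lowest class was also the weakest, with a median of 98 fragments in both libraries against 158 in the highest. In gene bodies the order was opposite, and SREBP2 went from 70.5% (66.7 to 74.1) to 46.1% (42.1 to 50.1) and RORγ from 58.7% to 42.8% at like strength, with medians of 74 and 76 fragments. Intergenic regions went from 44.2% to 51.1% for SREBP2, with intervals that overlap.

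Base composition at the summits differed more with strength than between lost and gained regions. Median GC within 100 bp was 69.7% at kept promoters, 54.7% at lost and 54.2% at gained ones, and with 11 to 20 fragments these became 57.7%, 55.2% and 54.7%. In gene bodies the median was 53.2% at kept, 51.2% at lost and 51.7% at gained regions. AP-1 letters, TGANTCA on either strand, were found at 3.55% of lost and 3.88% of gained promoters and at 4.41% of both lost and gained gene body regions. They were more common 1 kb away from the summit, at 5.86% and 6.07% in gene bodies. AGGTCA, the core letters to which nuclear receptors such as RORγ bind, was found at 4990 of 19821 lost and 6894 of 25825 gained gene body regions (25.2% and 26.7%). The share was 23.3% at kept ones, or 7590 of 32600, and 16.5%, 16.4% and 16.3% at 1 kb from lost, gained and kept summits. Of the matches at lost, gained and kept summits, 41.0%, 42.9% and 39.9% read on as AGGTCAGGAGTT, a run known from Alu repeats.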

How the data were processed

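HCC70 cells were profiled in 12 samples, of which the H3K27ac libraries of vehicle and XY018 (1 each) were compared, the 4 SREBP2 and RORγ libraries gave overlaps, and the 6 inputs were not used here. Per the labels, the processing named Bowtie2, MACS2 2.1.0, bedtools and hg19, whereas the study's methods name BWA. The lists that the authors deposited give 1 row per region with a fold enrichment over local background, a −log10 p and a −log10 q. The score column that the authors deposited is −log10 p rescaled for display with an upper limit, and it was left out. Under the Poisson model of MACS, fold and −log10 p were inverted to whole summit fragments (tolerance 5% of a step), which left out 1 XY018 region. The commonest local background was taken as genome-wide, and divided by the smallest width, 190 bp, it gave depth. Overlapping regions of both libraries were joined, and each gene took its strongest promoter region. GENCODE 44 on GRCh37 gave genes. Named genes and regions were the ends of each ranking (12 promoters, 8 lost or gained regions, 6 gene bodies and 6 distal regions each way) and members of gene lists. A few named genes and 1 sequence are not reported here. Members and lists were chosen with earlier results of these data known. Motifs were searched on both strands by their letters. Regions outside chromosomes 1 to 22 and X numbered 1 in each list. Shares carry Clopper-Pearson and fragments Poisson or conditional binomial 95% intervals. Medians carry order-statistic 95% intervals, and differences in kept share normal ones. Code was tested on simulated data and run with Python 3.11.15, numpy 2.4.6, scipy 1.17.1, pandas 2.3.3 and pysam 0.24.0.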

Additional observations from a re-analysis of the deposited data

How the results depend on the processing

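No paired analysis was possible because each group held 1 library. In the order promoter, gene body and intergenic, shares of regions kept were 86.6%, 63.0% and 67.6% with q of at most 1e-05, 84.1%, 59.1% and 63.2% with lists of equal length, 84.3%, 60.2% and 64.2% with an overlap of at least 50%, and 89.1%, 59.4% and 64.4% with regions under 1 kb apart merged. Shares gained under the same choices were 16.6%, 41.0% and 38.8%, then 16.8%, 40.3% and 39.0%, then 20.3%, 45.8% and 44.9%, then 13.5%, 46.3% and 44.8%. With protein-coding starts only, 86.9% of promoter and 63.2% of gene body regions were kept and 17.2% and 43.0% gained. Without classes of fold, the kept share differed by 19.3 points for promoter against intergenic and by -3.90 for gene body. Ratios in the same order were 1.3, 1.15 and 1.18 with at least 80 fragments, 1.27, 1.01 and 1.08 with at least 40 with vehicle, 1.32, 1.25 and 1.26 with at least 40 with XY018, and 1.34, 1.19 and 1.21 with local background, and 1.26 at promoters of protein-coding starts. The rise of gene body and intergenic ratios between the vehicle and XY018 minima follows from which library selected the regions. The order of the places in kept shares, gained shares and ratios held under these alternatives, as did the sign of both differences. Outside promoters, the position against equal fragment numbers, a ratio of 1.10, depended on the library that set the minimum. Gene body and intergenic medians lay below it with the vehicle minimum (1.01 and 1.08) and above it with the XY018 minimum (1.25 and 1.26). With lists of equal length, gene bodies lost a slightly larger share than they gained, unlike in the main lists. Of 30 gene lists, 26 stayed on the same side of all promoters. The others, given as the median relative to all promoters before and after, were basal identity (0.972 and 1.02 with GC), G1 to S (0.974 and 1.02 with GC), immediate early (1.01 and 0.976 with strength) and interferon genes (0.931 and 1.06 with both). Comparisons within classes of strength and GC were chosen after seeing the data. Depth limits what lost and gained can mean, since most such regions had 20 or fewer fragments, and a difference of a few fragments moves a region across the calling threshold. The intervals cover counting error or, for medians, the spread over regions or genes, and no error between replicates.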
